A study of Bos taurus with 31 samples.

Results

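The comparison described here set the liver transcriptome of fetuses from vitamin- and mineral-supplemented heifers against that of fetuses from unsupplemented heifers, with both sets of dams kept at a low rate of gain. It used 16 of the 31 fetal liver libraries of the study, 8 with the treatment label VTM_LG and 8 with the label NoVTM_LG. All fetuses were female, their dams were Angus-cross heifers, and semen of a single sire was used. The dams of both groups were fed a basal total mixed ration of triticale hay, corn silage, distillers grains and ground corn, with a target gain of 0.28 kg per day from breeding. Each VTM_LG dam was also given 0.45 kg per day of ground corn that carried the vitamins and minerals as a premix, starting 71 to 148 days before insemination, and NoVTM_LG dams did not receive the premix. The treatments ran until day 83 of gestation, when the fetal livers were taken. The remaining libraries came from dams given an energy and protein supplement, with 0.79 kg per day (moderate gain) as the target, without the premix (NoVTM_MG, 8 fetuses) or with it (VTM_MG, 7 fetuses). The corn carrier came with the premix, so within these groups the premix and its carrier cannot be told apart.

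Trace minerals and vitamins reach the fetus only through the placenta, and the fetal liver stores much of what arrives. Many of them act as cofactors of enzymes or as ligands of nuclear receptors. In early gestation the liver is also the main site of blood formation, so a piece of fetal liver holds blood cell precursors beside hepatocytes. In such bulk tissue, fewer cells of a type and less RNA per cell cannot be told apart. The question was whether the dam's supplementation alone, at low gain, went with altered transcript levels in this tissue. The count table identifies genes by Ensembl bovine identifier, and 0 of its 27607 identifiers could be matched to a symbol. Markers of liver or of other cell types could therefore not be checked, and no function is stated for any gene.

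The 16 libraries held 13186812 to 16360774 counts each, with 17118 to 17699 genes at 1 count or more. Of all genes, 14228 had enough counts to be tested. Library size, number of detected genes and the share of counts in the 10 most abundant genes gave no difference between VTM_LG and NoVTM_LG that passed (exact permutation tests, two-sided, n = 8 and 8, 4 measures, smallest adjusted p = 0.18). Those 10 genes together took 32.1% ± 1.44 of the counts in VTM_LG and 33.4% ± 1.35 in NoVTM_LG (SD). VTM_LG replicates 4 and 7 had the fewest detected genes of all 31 libraries, 17138 and 17118, though replicate 7 held the most counts of the 16. The difference in mean detected genes was -97.1 with all 16 libraries and -13.2 without these 2. VTM_LG replicates 4 and 7 also stood apart from the other libraries in transcript levels, and the results below are given with and without them.

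No gene passed the test for supplementation at low gain. In the edgeR quasi-likelihood test 0 of 14228 genes (0%) passed at the adjusted threshold of 0.05, where 0.601 was the lowest adjusted p. DESeq2 and limma voom also called 0, with smallest adjusted p-values of 0.357 and 0.537. Without VTM_LG replicates 4 and 7, edgeR called 0 of 14278 genes (0%), with a smallest adjusted p of 0.9999. An unadjusted p under 0.05 was reached by 1174 genes, 8.25% of those tested. Of these 617 (4.34% of those tested) were higher and 557 (3.91%) lower in VTM_LG. Without replicates 4 and 7 the count was 533, or 3.73%, of which 249 were higher (1.74%) and 284 lower (1.99%). With only the 16 libraries of this comparison in the fit, 768 of 13707 genes (5.6%) were under 0.05 and 0 passed. A share of 5% is what the test gives on average where nothing differs. Below 0.001 lay 11 genes with all libraries, or 0.0773%, and 4 without replicates 4 and 7, or 0.028%.

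The data limited the size of change for most genes. The fitted difference lay within 1.2-fold for 87.6% of the genes and within 2-fold for 99.8%. Without VTM_LG replicates 4 and 7 these shares were 89.9% and 99.7%. Intervals were wider than the fitted values. The 95% interval lay wholly within 1.2-fold for 33.7% of the genes, within 1.5-fold for 79.7% and within 2-fold for 95.3%. Without replicates 4 and 7 the shares were 41.5%, 80.4% and 94.2%. Precision rose with transcript level. Among genes with a mean of 10 to 100 CPM (counts scaled to a common library size) over the 16 libraries, 96.4% had an interval within 1.5-fold, as did 66.5% of those at 1 to 10 CPM and 2.66% of those under 1 CPM. In the fit without replicates 4 and 7 the shares of these classes were 97.8%, 67.7% and 1.43%.

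**Figure D1:**
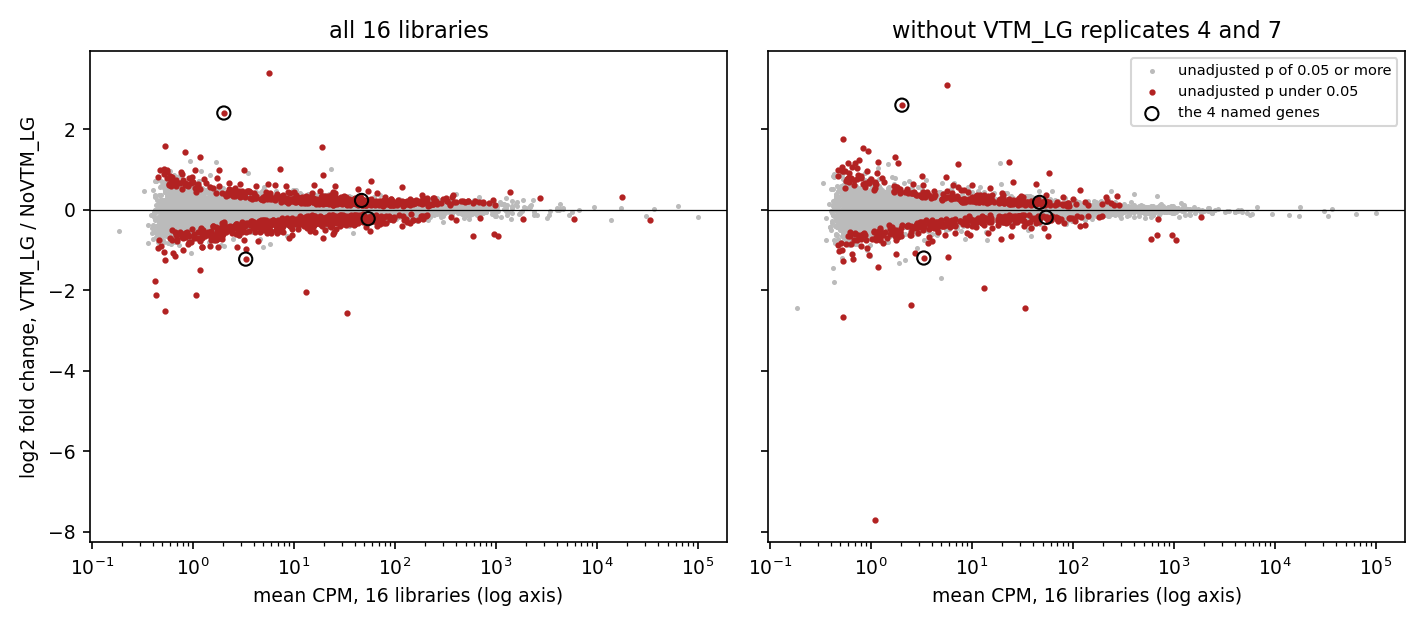
Fitted log2 fold change of VTM_LG over NoVTM_LG (vertical axis) against the mean CPM over the 16 libraries (log axis) for each tested gene, with all libraries (left) and without VTM_LG replicates 4 and 7 (right). Red points are the 1174 genes (left) with an unadjusted p under 0.05 and those of the 533 (right) that were also tested with all libraries, and none passed the adjusted threshold. The lowest point on the right is a gene with 0 counts in the 6 VTM_LG libraries that remained, so its position depends on the prior count.

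Because no gene passed, the genes nearest to a call were described, taking for either direction the 2 of lowest p that averaged at least 1 CPM in either group. ENSBTAG00000020963 was measured at 37.4 CPM (lowest), 43.9 (median) and 46.3 (highest) in NoVTM_LG, and at 41.6, 50.4 and 55.7 CPM in VTM_LG. The groups overlapped through a single fetus: 7 of 8 VTM_LG livers lay above every NoVTM_LG liver, and VTM_LG replicate 8 was the exception. The means were 43.1 ± 2.87 and 50.5 ± 4.68 CPM (SD, n = 8 and 8), a difference of 17.1% (log2 fold change 0.23, SE 0.0558, unadjusted p = 0.000266, adjusted p = 0.601 in edgeR). VTM_LG replicates 4 and 7 were the highest of the group, at 55.7 and 55 CPM. Without them the difference was 13.3% (edgeR: adjusted p = 0.9999, log2 fold change 0.18, SE 0.0562). The moderate-gain groups fell between these values, at 46.7 ± 2.91 CPM in NoVTM_MG and 44.7 ± 1.71 CPM in VTM_MG.

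ENSBTAG00000011803 had a low level in nearly all fetuses. It was measured at 0.345, 0.652 and 0.908 CPM in NoVTM_LG (lowest, median and highest), which corresponds to 5 to 13 counts, and at 0.273, 0.869 and 20.3 CPM in VTM_LG. The mean was 0.638 CPM in NoVTM_LG and 3.42 CPM in VTM_LG, so the gene met the limit of 1 CPM through VTM_LG alone. VTM_LG replicate 1 alone, with 286 counts, held 74.3% of the CPM summed over its group. The other 7 VTM_LG fetuses averaged 1 ± 0.664 CPM, and replicates 4 and 7, at 1.92 and 1.9 CPM, were the next highest. The log2 fold change was 2.40 (SE 0.604, adjusted p = 0.601 in edgeR), 2.59 without replicates 4 and 7 (adjusted p = 0.9999) and 0.64 without replicate 1. Limma voom with quality weights put it at 0.60. In the moderate-gain groups the gene averaged 0.651 ± 0.354 CPM (NoVTM_MG) and 0.57 ± 0.0507 CPM (VTM_MG).

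ENSBTAG00000043250 was measured at 1.12, 4.29 and 8.68 CPM in NoVTM_LG (lowest, median and highest) and at 1.33, 2.05 and 2.46 CPM in VTM_LG. All 8 VTM_LG livers lay below the NoVTM_LG median, but the lowest value of all belonged to NoVTM_LG replicate 4, so the groups overlapped. The means were 4.68 ± 2.51 and 2 ± 0.42 CPM, a difference of -57.3% (edgeR: adjusted p = 0.601, log2 fold change -1.23, SE 0.302). The spread differed along with the mean: the coefficient of variation was 53.7% in NoVTM_LG and 21% in VTM_LG. Without replicates 4 and 7 the log2 fold change was -1.20 (adjusted p = 0.9999 in edgeR). At moderate gain the gene was also lower with supplementation, at 3.32 ± 1.64 CPM in VTM_MG and 5.48 ± 2.01 CPM in NoVTM_MG (log2 fold change -0.73, SE 0.298, unadjusted p = 0.0194, adjusted p = 0.955 in edgeR). The difference between the effects at the 2 levels of gain was -0.50 on the log2 scale, with a 95% interval of -1.36 to 0.36 (adjusted p = 0.675 in edgeR).

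ENSBTAG00000002966 was measured at 54.4, 56.6 and 65.9 CPM in NoVTM_LG (lowest, median and highest) and at 45.6, 49.4 and 57.6 CPM in VTM_LG. In 7 of 8 VTM_LG livers it lay below every NoVTM_LG liver, and VTM_LG replicate 8 was again the exception. The means were 58.6 ± 4.24 and 50.1 ± 4.26 CPM, a difference of -14.4% (edgeR: adjusted p = 0.601, log2 fold change -0.22, SE 0.0568). Without replicates 4 and 7 it was -12.4% (adjusted p = 0.9999 in edgeR). The moderate-gain groups averaged 58.5 ± 3.99 CPM (NoVTM_MG) and 58.8 ± 3.45 CPM (VTM_MG), close to NoVTM_LG. Over 24 other settings of the test, or 23 for ENSBTAG00000011803, each of the 4 genes kept its direction and passed in 0. ENSBTAG00000011803 was not tested under the filter of more than 1 CPM in 7 libraries.

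**Figure D2:**
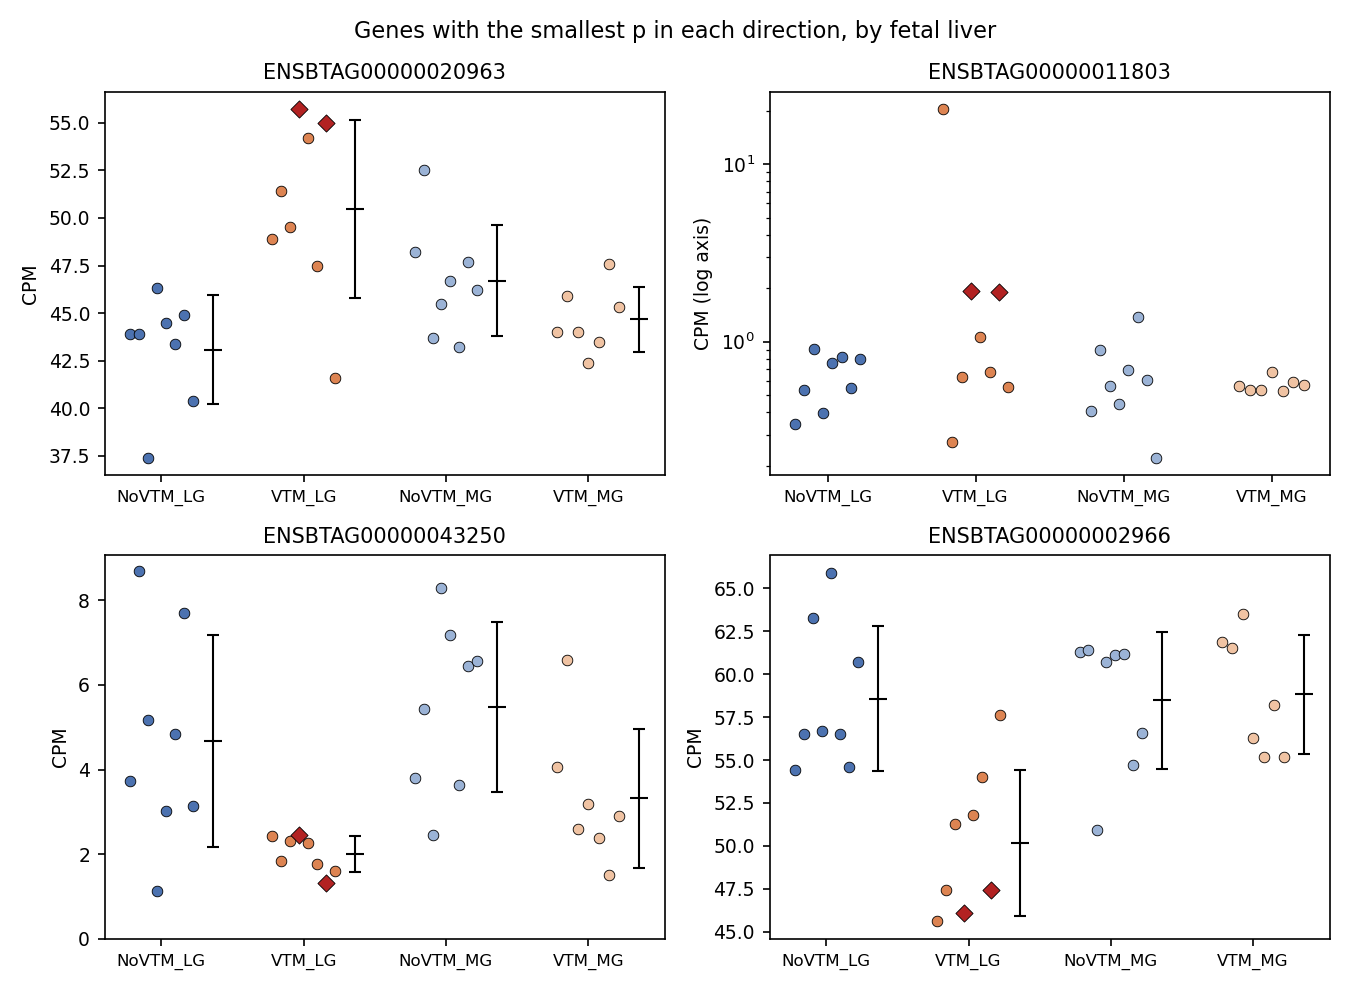
CPM of the 4 genes in each fetal liver, by group; each point is 1 fetus, red diamonds are VTM_LG replicates 4 and 7, and bars show mean ± SD. The panel of ENSBTAG00000011803 has a log axis and no bars, and VTM_LG replicate 1 lies there at 20.3 CPM, while for ENSBTAG00000020963 and ENSBTAG00000002966 VTM_LG replicate 8 lies among the NoVTM_LG fetuses.

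Full separation of the groups was rare. Of 14228 genes, 2 (0.0141%) had no overlap in CPM between the 8 VTM_LG and the 8 NoVTM_LG livers, 1 in each direction. These genes are described without identifiers. The higher one was measured at 33.5 to 39.2 CPM in NoVTM_LG and at 40.1 to 46.2 CPM in VTM_LG (edgeR: adjusted p = 0.601, log2 fold change 0.17, SE 0.0524). The lower one was measured at 2.32 to 3.18 CPM in NoVTM_LG and at 1.64 to 2.31 CPM in VTM_LG (edgeR: adjusted p = 0.601, log2 fold change -0.43, SE 0.145). The gap between the groups was less than the range within either of them for both genes. At moderate gain the first had a log2 fold change of -0.03 and the second one of 0.26. Without VTM_LG replicates 4 and 7, 4 genes (0.0281%) had no overlap, the same 2 among them.

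The unadjusted differences were spread unevenly over the VTM_LG fetuses. Of the 617 genes that were higher in VTM_LG at an unadjusted p under 0.05, VTM_LG replicate 4 held the highest value of all 16 libraries in 424, or 68.7%, and replicate 7 in 60, or 9.72%. Over all tested genes, replicate 4 was the highest of the 8 VTM_LG libraries in 26.9% and replicate 7 in 10.8%. Among those 8 libraries their shares of the higher list were also 68.7% and 9.72%. By this measure replicate 7 was not more frequent in the higher list than over all genes. Of the 557 genes that were lower, replicate 4 held the lowest value in 296, or 53.1%, and replicate 7 in 109, or 19.6%. Over all tested genes they were the lowest of the 8 VTM_LG libraries in 23.4% and 13.7%, and over the lower list in 53.7% and 20.3%. Each of the other 6 VTM_LG libraries held the extreme value in 12 to 35 genes of either list. Since these genes were taken from the same libraries, the shares describe which fetuses carry the differences and test nothing.

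The genes of both lists were chosen for a difference between the groups, so most VTM_LG fetuses were likely to lie on that side of NoVTM_LG. Median deviations were smaller in the remaining VTM_LG fetuses than in replicates 4 and 7, and smallest in replicate 8. The median deviation from the NoVTM_LG mean over the 557 lower genes was -0.77 on the log2 scale in replicate 4 and -0.57 in replicate 7. It was -0.29 in replicate 2, -0.26 in replicates 5 and 6, -0.17 in replicate 1 and -0.15 in replicate 3. In replicate 8 it was -0.06. That fetus lay below the NoVTM_LG median in 60.5% of the lower genes and above it in 56.9% of the higher genes, against 75% to 96.6% in the other VTM_LG fetuses. Leaving out replicate 8 raised the number of genes at an unadjusted p under 0.05 to 1907, with 0 passing the adjusted threshold, and leaving out replicate 4 lowered it to 614.

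Of the 1174 genes, 341 also had an unadjusted p under 0.05 in the same direction without replicates 4 and 7. That is 29% of the longer list and 64% of the shorter one. Among the 1173 that could be tested in both, the direction was the same in 1173, and the median size of the fitted change was 0.26 on the log2 scale with replicates 4 and 7 and 0.16 without them. Both fits hold the other 14 of the 16 libraries.

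VTM_LG fetuses differed more from one another than NoVTM_LG fetuses did, by an amount that did not pass after adjustment. The distance of each library from the median profile of the other libraries of its group (root mean square over genes, in log2 CPM) was 0.332, 0.347 and 0.386 in NoVTM_LG (lowest, median and highest) and 0.328, 0.386 and 0.581 in VTM_LG. Replicates 4, 7 and 8 were the farthest, at 0.581, 0.459 and 0.439, and all 3 lay above every NoVTM_LG library. The group means were 0.411 ± 0.0821 and 0.352 ± 0.0203 (exact permutation test, two-sided, n = 8 and 8, p = 0.0496, adjusted p = 0.18 over 4 measures). Without replicates 4 and 7 the means were 0.38 ± 0.0284 and 0.352 ± 0.0203 (exact permutation test, n = 6 and 8, p = 0.0573, adjusted p = 0.229). There the VTM_LG distances were taken anew from medians of fewer libraries than in NoVTM_LG, which by itself adds to a distance. The distances of a group also share libraries and are not independent, which limits both tests. Gene by gene, the SD was larger in VTM_LG for 73.3% of the genes with all libraries and for 56% without those 2.

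**Figure D3:**
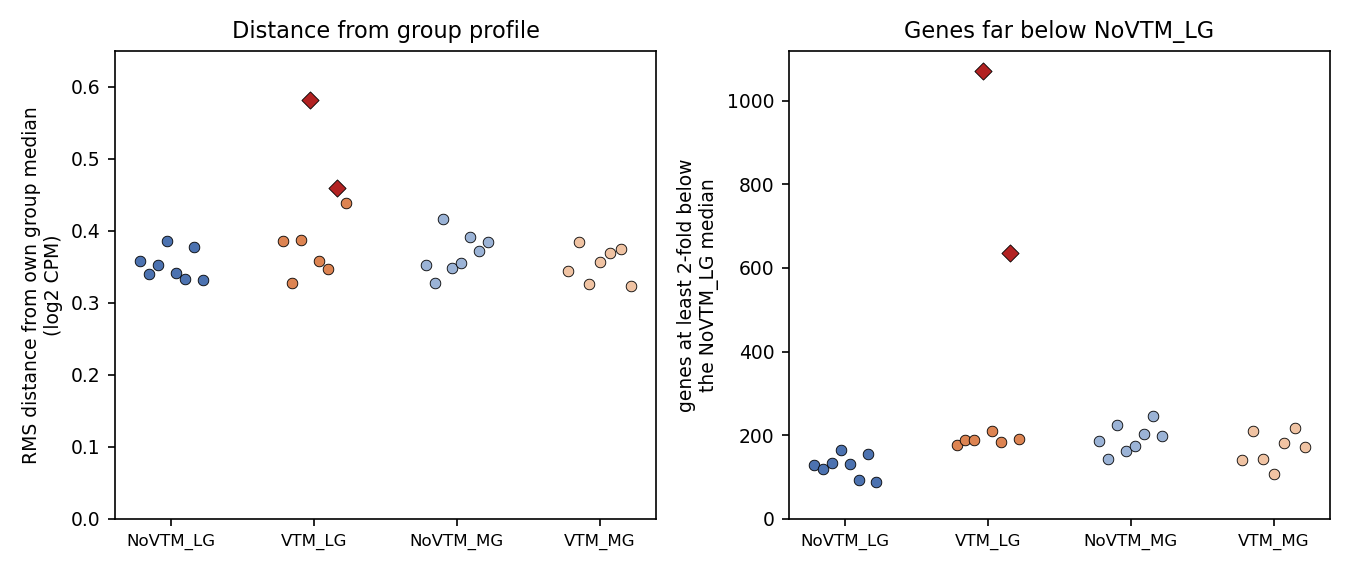
Left, root mean square distance of each library from the median profile of the other libraries of its group, in log2 CPM; right, number of genes at least 2-fold below the NoVTM_LG median in each library, where the NoVTM_LG libraries are part of that median. Each point is 1 fetus and red diamonds are VTM_LG replicates 4 and 7, which had 1070 and 635 such genes against 88 to 246 in the other libraries.

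The split of the unadjusted differences by direction was not the same in all classes of transcript level. Among the 1201 genes with a mean of 100 CPM or more, 112 had an unadjusted p under 0.05, of which 85 were higher and 27 lower in VTM_LG. Among the 4733 genes at 1 to 10 CPM there were 326, of which 114 were higher and 212 lower. The most abundant class thus leaned upward and the class at 1 to 10 CPM downward. The medians over all genes of those 2 classes were 0.030 and -0.027 on the log2 scale. The largest class, 7242 genes at 10 to 100 CPM, also leaned upward, with 385 higher and 284 lower genes, and 116 and 113 without replicates 4 and 7. The scarcest class, under 1 CPM, held 33 higher and 34 lower genes, and 34 and 28 without replicates 4 and 7. With scaling by relative log expression the splits of the first 2 classes were 79 to 28 and 108 to 220. Without replicates 4 and 7 they were 11 to 14 and 85 to 125, and the medians were 0.003 and -0.009. The leaning of the abundant genes was therefore not present without those 2 libraries.

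With all libraries, a fitted difference of at least 2-fold was found for 25 genes (0.176%), 10 higher and 15 lower in VTM_LG. Their smallest adjusted p was 0.601 in edgeR. Without VTM_LG replicates 4 and 7, 14230 of 14278 genes (99.7%) had a fitted difference under 2-fold, so more genes reached 2-fold in that fit. When each of the 16 libraries was left out in turn, 11 of the 25, 4 higher and 7 lower, stayed at 2-fold or more in every such fit in which they had enough counts to be tested. Of these 11, 1 higher gene did not have enough counts in some of the fits. In 8 of the 25, or 32%, the livers fell into a low and a high set with nothing between them, described here as a gap of at least 3-fold between neighbouring libraries with at least 2 of the 31 on either side. Of all 14228 tested genes, 35 (0.246%) had such a gap. A few livers far above the rest can by themselves give a large fitted change. Choosing genes by that change therefore favours such gaps, and setting these shares side by side tests nothing. The genes were chosen for their size of change after the values were seen, and they are described without identifiers.

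The gene with the largest rise of the 25 had 16.7 to 30 CPM in 6 livers and 0.273 to 2.76 CPM in the other 25. The high livers were VTM_LG replicates 3, 6 and 7, NoVTM_MG replicate 1 and VTM_MG replicates 1 and 5. High and low livers thus occurred within 3 of the 4 groups, and 0 of 8 NoVTM_LG livers were high. The fitted log2 fold change at low gain was 3.39 (SE 0.98, adjusted p = 0.601 in edgeR), and at moderate gain it was 1.05. A second gene had 82.7 to 85.5 CPM in 4 livers and 5.08 to 17.3 CPM in 27, with 2 high livers in VTM_LG, 1 in NoVTM_MG, 1 in VTM_MG and 0 in NoVTM_LG. Its log2 fold change was 1.56 (adjusted p = 0.601 in edgeR). In another gene 3 livers were high, at 3.59 to 5.83 CPM, 2 of them in VTM_LG and 1 in VTM_MG, against 0.142 to 0.84 CPM in the other 28. VTM_LG replicate 7 was high in the first and second of these genes and replicate 4 was high in none of the 3.

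The 5 genes of this kind that were lower in VTM_LG met the same gap rule. One had 39 to 55.5 CPM in 6 livers, NoVTM_LG replicates 3, 7 and 8, NoVTM_MG replicate 5 and VTM_MG replicates 3 and 6, and 0.672 to 10.4 CPM in 25 (edgeR: adjusted p = 0.601, log2 fold change -2.05, SE 0.735). Another had 0 counts in 13 livers and 0.378 to 4.16 CPM in 18, which were 7 of the 8 NoVTM_LG, 2 of the 8 VTM_LG, 6 of the 8 NoVTM_MG and 3 of the 7 VTM_MG livers. The 2 high VTM_LG livers were replicates 4 and 7, and the log2 fold change with all libraries was -2.13 (SE 0.955, adjusted p = 0.601 in edgeR). No other VTM_LG liver had counts, so without them the 6 that remained held 0 by the choice of libraries (edgeR: adjusted p = 0.9999). A fold change from that fit bounds no effect of supplementation, since livers at 0 counts also occurred in each of the other groups. A further gene reached 2.25 to 4.36 CPM in 9 livers (2 NoVTM_LG, 4 NoVTM_MG, 3 VTM_MG and 0 VTM_LG), and at most 0.42 CPM in 22. The remaining 2 were high in 2 livers each. One of them reached 334 and 359 CPM in NoVTM_MG replicate 7 and NoVTM_LG replicate 7. The other 29 livers were spread widely, from 2.71 to 89.8 CPM, and did not share 1 low level. The log2 fold change of this gene was -2.56 with NoVTM_LG replicate 7 and -0.59 without that library. The other was high, at 4.76 and 6.77 CPM, in 2 NoVTM_LG livers alone, and its log2 fold change of -1.49 became -0.74 without NoVTM_LG replicate 1. Low counts lie behind the smallest of these values, with at most 66 counts per liver in the gene with 18 high livers and 78 in that with 9.

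**Figure D4:**
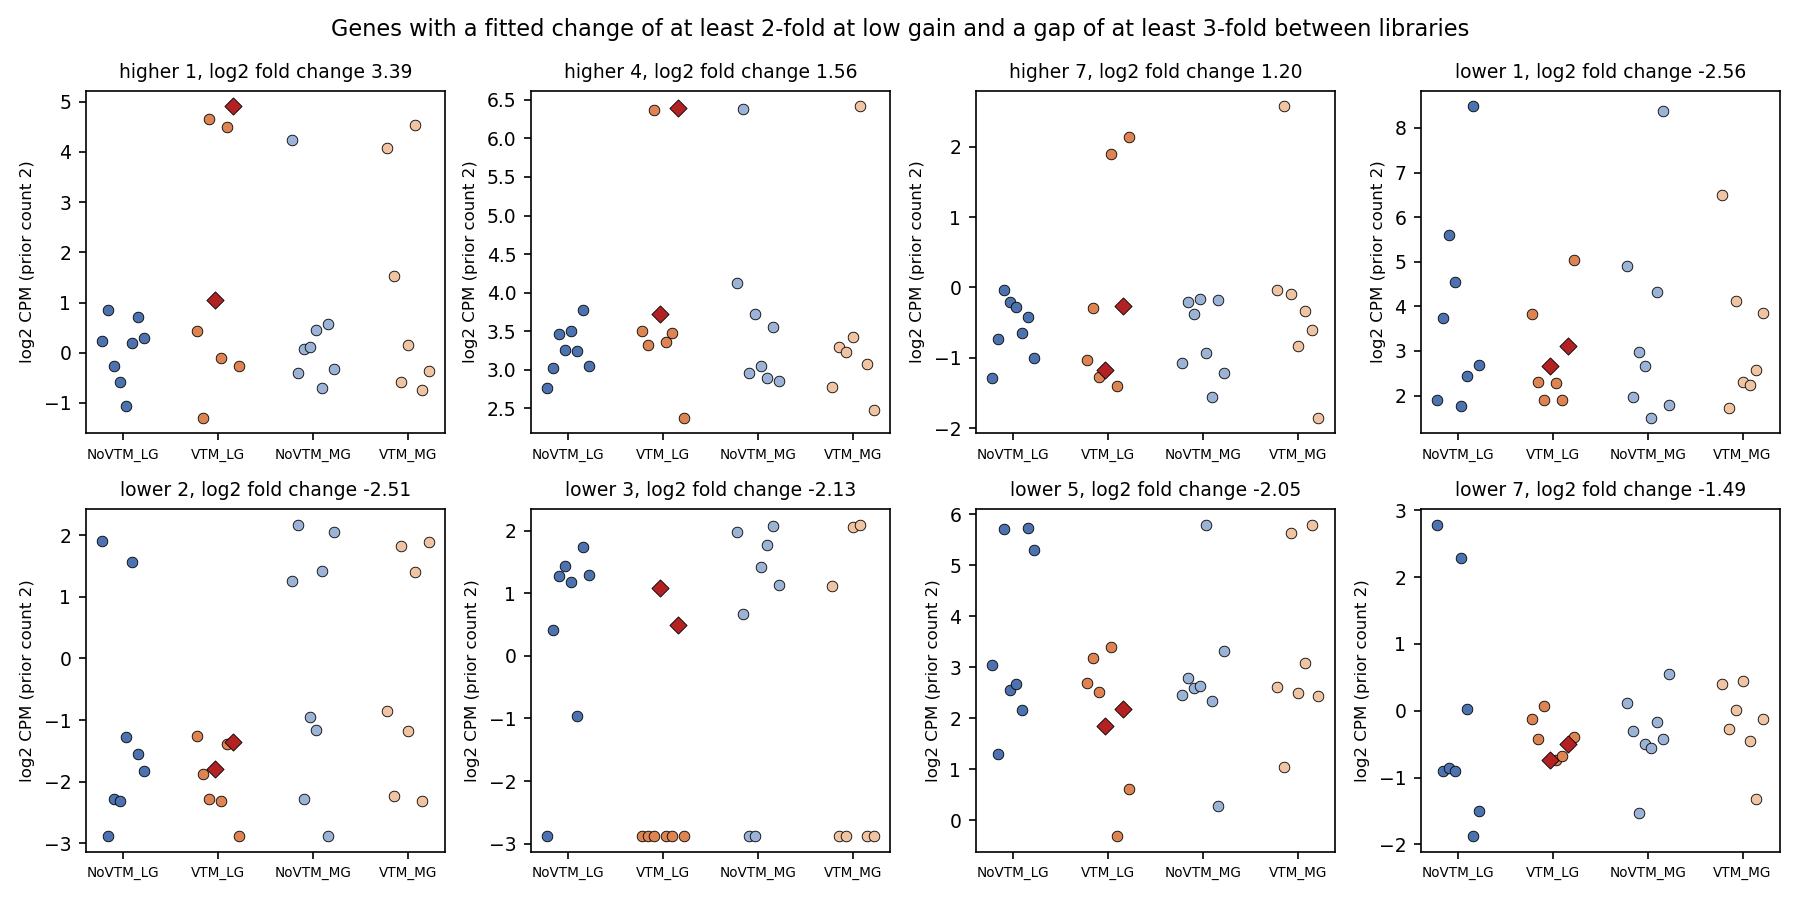
Level of the 8 genes with a fitted change of at least 2-fold at low gain and a gap of at least 3-fold between libraries, as log2 CPM with a prior count of 2, by group; each point is 1 fetus and red diamonds are VTM_LG replicates 4 and 7. Panels are ordered by direction and size of the fitted change in VTM_LG. The high livers of the first panel number 3 in VTM_LG, 1 in NoVTM_MG, 2 in VTM_MG and 0 in NoVTM_LG.

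Genes detected in a single low-gain group had few counts. The whole table holds 27607 genes, of which 5686 had 0 counts in every library. Of the 27607, 1 gene had counts in at least 6 of 8 VTM_LG livers and 0 in all NoVTM_LG livers, and 2 genes had the reverse. With at least 4 livers the numbers were 15 and 22, and the highest count summed over a group was 20. How many such genes sparse counts alone would give was not worked out, so these numbers test nothing.

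At moderate gain the same question was put to VTM_MG and NoVTM_MG, which share no library with the low-gain groups. The edgeR test called 0 of 14228 genes (0%), while 650 (4.57%) had p under 0.05 before adjustment. Of the 617 genes higher at low gain by that threshold, 170, or 27.6%, were also higher at moderate gain, against 50.2% of all tested genes. Of the 557 lower genes, 143, or 25.7%, were also lower, against 49.8%. The medians at moderate gain were small, at -0.056 and 0.079 on the log2 scale. An unadjusted p under 0.05 in the same direction at moderate gain was reached by 7 of the higher genes (1.13%, against 1.81% of all tested genes) and 13 of the lower ones (2.33%, against 2.76%). For the genes taken without replicates 4 and 7 the shares were nearer to those of all genes, at 41.9% of 246 higher genes and 42.9% of 280 lower genes. Of these, 7 higher genes (2.85%) and 13 lower genes (4.64%) had an unadjusted p under 0.05 in the same direction at moderate gain, which is above the shares of all tested genes. Genes of 1 library vary together and are not independent, so these shares carry no test.

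The 10 genes nearest to a call in each direction were followed in the same way. Of the 10 higher genes, with log2 fold changes of 0.22 to 3.39 at low gain, 3 were also higher at moderate gain and 0 had an unadjusted p under 0.05 there (median -0.03). Of the 10 lower genes, at -1.23 to -0.22 at low gain, 5 were also lower, and ENSBTAG00000043250 alone had an unadjusted p under 0.05 (median -0.01). VTM_LG replicate 4 lay beyond all NoVTM_LG livers in 10 of the 10 higher and 9 of the 10 lower genes, and replicate 8 in 1 and 3. The other VTM_LG fetuses did so in 5 to 9 of the higher and in 4 to 8 of the lower genes. The genes were chosen by their p in these same libraries, which favours such positions. These counts have no share over all tested genes beside them and test nothing.

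Whether the effect of supplementation differed between low and moderate gain was tested as an interaction. The edgeR interaction passed for 0 of 14228 genes (0%), where 0.431 was the lowest adjusted p, and 1516 genes (10.7%) were under 0.05 before adjustment. Without VTM_LG replicates 4 and 7 it passed for 0 of 14278 genes (0%), and 920 (6.44%) were under 0.05 before adjustment. For ENSBTAG00000020963 the difference between the effects was 0.29 on the log2 scale (SE 0.0804, adjusted p = 0.431 in edgeR), and for ENSBTAG00000002966 it was -0.23 (SE 0.0815, adjusted p = 0.431). A response particular to low gain was thus not shown for any gene.

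**Figure D5:**
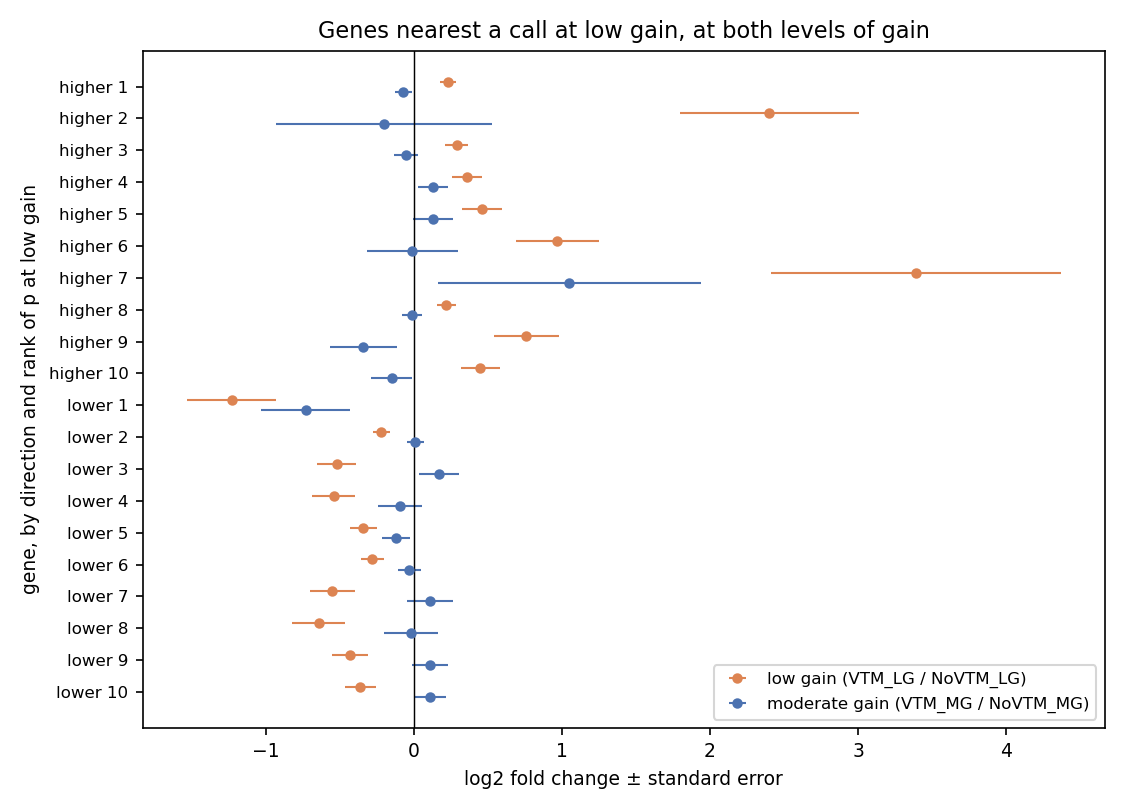
Fitted log2 fold change ± standard error for supplementation at low gain (orange) and at moderate gain (blue) of the 10 genes nearest to a call in each direction at low gain, ordered by p. The low-gain values chose the genes; at moderate gain 3 of the 10 higher genes and 5 of the 10 lower genes lay on the same side of 0.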

How the data were processed

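Liver RNA of 31 fetuses was sequenced in pairs of 150 bp from strand-specific libraries, per the labels' protocols. The submitters' processing notes name CASAVA, FastQC 0.11.8, MultiQC 1.9, STAR 2.7.3a and edgeR without roles. For the genome build, the annotation and the counting program nothing is stated there. The authors deposited raw, unnormalized counts by gene, and columns were matched to samples by title and to groups by the treatment label.

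Low counts were filtered with filterByExpr over the 4 groups (minimum count 10, minimum total 15). TMM scaling and the quasi-likelihood test of edgeR 4.0.16 (R 4.3.3) followed, on all 31 libraries with 1 mean per group. P-values were adjusted by Benjamini-Hochberg over all tested genes, with a threshold of 0.05. The biological coefficient of variation, pooled over genes and groups, was 15.6%. Replicate numbers follow sample order and are names only. Breeding group is not given per sample and could not be entered in the model. No pair of the 16 libraries matched within sampling noise (120 pairs, chi-square per degree of freedom of at least 7.14). Each fetus had its own dam, and all shared a sire, so the p-values rest on the spread between such fetuses.

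The comparison, rules and lists were chosen with earlier results of these data known. Identifiers could not be matched to symbols (37063 reference genes, 0 with an Ensembl identifier), so 34 gene and marker lists could not be run. The rule for named genes then took the 2 identifiers with the smallest p in each direction that averaged 1 CPM or more in VTM_LG or NoVTM_LG. The alternatives were other scaling, filters, tests (DESeq2 1.42.0, limma 3.58.1), thresholds and sets of libraries. The genes without overlap, those with changes of 2-fold or more and the gap rule were looked at after the values were seen.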

Additional observations from a re-analysis of the deposited data

Results flagged for a closer look

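Of 32 sets of 7 or 8 libraries checked for a value far from the rest (4 genes and 4 library measures in 4 groups), 3 held one. For unselected, independent sets chance gives about 1 in 20. The 4 genes were chosen by their p in these same libraries, and the sets share libraries. The 3 can therefore not be held against that rate. ENSBTAG00000011803 stood at 20.3 CPM in VTM_LG replicate 1, with a gap to the next library of 0.918 of the range of its group. The same gene stood at 0.673 CPM in VTM_MG replicate 4, with a gap of 0.571 of a narrow range. VTM_MG replicate 4 also had the most detected genes of its group, 17801, with a gap of 0.575 of the range. Neither VTM_LG replicate 4 nor 7 was marked in this way by the 4 library measures. The rule looks at the gap to the next library alone. In distance, replicate 4 stood at 0.581 with replicate 7 next at 0.459. In detected genes replicates 4 and 7 lay side by side, at 17138 and 17118.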

How the results depend on the processing

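The number of genes past the threshold for VTM_LG against NoVTM_LG was 0 in each of the 24 settings tried and at an adjusted p under 0.10, and that for the interaction was 0 without VTM_LG replicates 4 and 7. The number at an unadjusted p under 0.05, 1174 with all libraries, was 533 of 14278 genes without VTM_LG replicates 4 and 7 and 768 of 13707 genes with only the VTM_LG and NoVTM_LG libraries in the fit. With 1 library left out in turn it ranged from 614 (without VTM_LG replicate 4) to 1907 (without VTM_LG replicate 8). For the interaction it was 1516, and 920 without VTM_LG replicates 4 and 7. The other settings moved the first count by less than 1.5 times. None of the 4 named genes changed direction or passed in any setting, and the lowest adjusted p of each was 0.159 to 0.226. No library measure changed direction or passed without replicates 4 and 7. Gene lists were not run under other settings, since no identifier had a symbol. No paired analysis was possible because the replicate numbers are names given in sample order and the labels carry none that groups share. Genes under 1 CPM limit the precision most, with 60.5% of intervals within 2-fold, and 53.9% without VTM_LG replicates 4 and 7.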
